A study of Mus musculus with 9 samples.

Results

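The interval between Shh and Lmbr1 on mouse chromosome 5 was examined for H3K27ac, the acetylated form of histone H3 (at its lysine 27) that is found at promoters and enhancers in use. Its members were all peaks of 3 H3K27ac peak lists that lay between 28.35 and 29.5 Mb of chromosome 5 (mm10), a span of 1.15 Mb. The interval was set by position and not by any measured value. It was chosen with earlier results of these data known, among them the absence of a peak within 10 kb of Shh. It held 20 of the 91822 peaks, of which 8 came from 25096 in the wild-type (WT) list, 7 from 32085 in the Shh-/- list and 5 from 34641 in the Shh-/-;Gli3-/- (double mutant) list. The lists came from MicroChIP-seq, a chromatin immunoprecipitation for small samples, on forelimb buds at E10.5 (33 to 34 somites), with the limb bud pair of a single embryo in each immunoprecipitation. The labels give the strain as mixed, while the study's methods keep both null alleles on Swiss Webster. WT embryos were littermates of the mutants. Shh-/- embryos were homozygous for the tm1amc null allele, which removes the Sonic hedgehog ligand. Shh-/-;Gli3-/- embryos were in addition homozygous for the extra-toes (Xt-J) null allele of Gli3. This removes the main repressor of Hedgehog (HH) target genes in the limb bud, whose action HH signalling relieves. Both alleles were germline nulls, so that every cell of the bud carried them. Each genotype had 2 H3K27ac replicates, 1 input and 1 peak list. Because no value per replicate was in the lists, no difference between genotypes could be set against the spread between embryos, and the comparisons here are descriptions of 3 lists.

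In the limb bud, Shh is made by a small group of posterior cells, the zone of polarizing activity, and its secreted product patterns the digits from posterior to anterior. Limb expression of Shh depends on the ZRS, an enhancer that lies far from Shh inside an intron of Lmbr1 and is bound by ETS, HOX and HAND2 factors. The gene desert between Shh and Rnf32 holds enhancers for other tissues, such as the brain, the floor plate and the epithelial linings. The questions were therefore whether acetylation was called at Shh, in the desert and at the ZRS in each genotype. Whole forelimb buds were assayed, so that fewer acetylated cells and less acetylation per cell cannot be told apart.

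The sequences at the ZRS are shown first, because the presence of peaks around it carries the main result. They are written from the GRCm38 reference, the assembly of mm10, on the plus strand. The first is the sequence under the Shh-/- peak, the next 2 are those under the double mutant peaks, and the last holds 300 bp around the ZRS position of 29.315 Mb, where no list had a peak. Capitals mark a match to an ETS site.
Shh-/- peak, chr5:29313900-29314099: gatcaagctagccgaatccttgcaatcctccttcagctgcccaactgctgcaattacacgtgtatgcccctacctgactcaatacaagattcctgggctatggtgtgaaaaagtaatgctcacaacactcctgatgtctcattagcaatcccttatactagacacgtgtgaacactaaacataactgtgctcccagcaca
Double mutant peak, chr5:29314400-29314599: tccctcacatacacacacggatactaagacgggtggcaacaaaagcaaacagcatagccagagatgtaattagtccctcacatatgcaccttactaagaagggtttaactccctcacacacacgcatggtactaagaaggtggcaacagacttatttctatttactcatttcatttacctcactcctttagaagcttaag
Double mutant peak, chr5:29315700-29315899: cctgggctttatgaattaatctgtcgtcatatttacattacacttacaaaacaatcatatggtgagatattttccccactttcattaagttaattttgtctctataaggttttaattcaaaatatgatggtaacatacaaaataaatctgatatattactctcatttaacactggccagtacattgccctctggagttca
ZRS position, chr5:29314851-29315150: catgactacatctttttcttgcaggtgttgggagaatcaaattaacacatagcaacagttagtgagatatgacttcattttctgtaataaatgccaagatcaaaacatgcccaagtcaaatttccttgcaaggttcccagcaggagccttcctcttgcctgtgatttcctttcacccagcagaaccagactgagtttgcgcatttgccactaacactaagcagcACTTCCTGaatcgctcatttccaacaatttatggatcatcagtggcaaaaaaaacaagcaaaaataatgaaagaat

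Peaks near the ZRS were listed for both mutants and not for WT limb buds, and at an FDR below 0.05 only for the double mutant. The ZRS position lay in intron 5 of a 17-exon transcript of Lmbr1 (29292950 to 29323801, 30.9 kb long), 848 kb from the start of Shh and 63.4 kb from that of Lmbr1. Within the 2 kb from 29.314 to 29.316 Mb there were 0 WT, 1 Shh-/- and 2 double mutant peaks. The borders of the enhancer were not annotated in the reference used here, so that the window was set around the position alone. The same counts were found within 10 kb of the position and in the whole of intron 5. The WT peak nearest to the position was 63.7 kb away, at the Lmbr1 promoter.

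All 3 peaks at the ZRS were 200 bp wide. The Shh-/- peak (29313900 to 29314099) reached 100 bp into the 2 kb window, and its near edge was 900 bp from the position. Its fold, the largest log2 ratio of H3K27ac to input reads anywhere in it, was 2.48, higher than in 19.8% of Shh-/- peaks. Its false discovery rate (FDR) was 0.0842. The Shh-/- peak was thus a weak peak of its list and lay at the edge of the window.

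The first double mutant peak (29314400 to 29314599) began 300 bp beyond the end of the Shh-/- peak, and no base was shared between them. Its log2 fold was 2.18, higher than in 14.6% of double mutant peaks, and its FDR was 0.0558. The second (29315700 to 29315899) had a log2 fold of 2.74, higher than in 53.8% of the list, and an FDR of 0.0015. The double mutant peaks flanked the ZRS position on either side, with 1100 bp without a peak between them and edges 400 and 699 bp from the position. A second peak close by was common in that list, since 66.2% of its peaks (22927 of 34641) had another within 2 kb. The deposited Poisson p-value had a −log10 of 6.64 for the Shh-/- peak, 17.4 for the first double mutant peak and 6.98 for the second. The order of the double mutant peaks was thus opposite by fold and by p-value.

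Only the second double mutant peak passed an FDR of 0.05, so that 0 WT, 0 Shh-/- and 1 double mutant peak remained at the ZRS under that threshold. Peaks of such fold were often without a partner in another list. Of all Shh-/- peaks in the same decile of fold as the ZRS peak, 18.5% overlapped a WT peak and 33.3% a double mutant peak. For the double mutant peaks the corresponding shares were 12.7% and 20.7% in the decile of the first, and 34.4% and 43.9% in the decile of the second, against WT and Shh-/- peaks in that order. These deciles were taken over all peaks of a list, those at promoters included. The lists run down to a score of 3 and beyond an FDR of 0.05, a stricter criterion. Called peaks were described by the study with that criterion, and under it the Shh-/- peak at the ZRS is not a called peak. The mutant lists were also longer than the WT list, which held 25096 peaks. By rank, the Shh-/- peak (25731) and the first double mutant peak (29568) lay past that length, and the second (16021) did not. Absence of a peak from a list does not measure the acetylation that was there. The study reported weaker signal with MicroChIP than with its standard protocol. Its standard H3K27ac data for WT and Shh-/- limb buds were not used here.

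**Figure D1:**
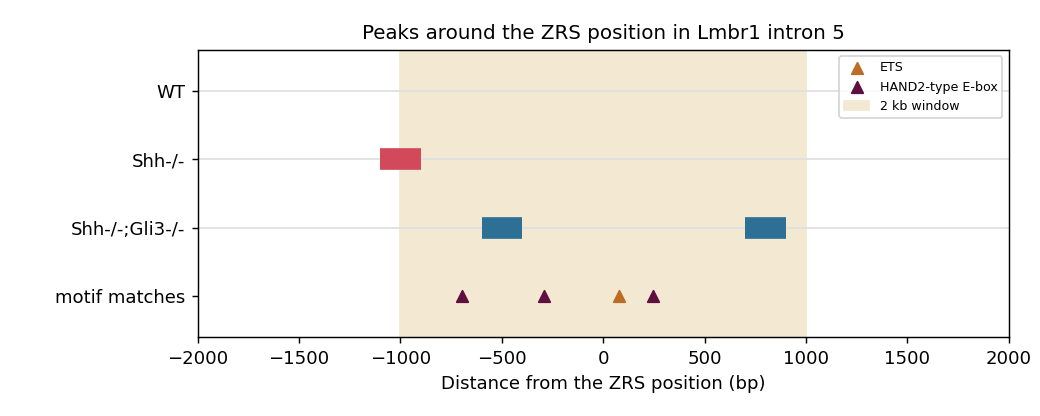
Peaks within 2 kb of the ZRS position in each list (bars, to scale) with the matches to the searched motifs (triangles), against distance in bp along chromosome 5. The WT row is empty, the Shh-/- peak overlaps the left edge of the shaded 2 kb window by 100 bp, and the 2 double mutant peaks lie on either side of the position.

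The sequence of the 2 kb window was searched on both strands for 4 motifs of factors known to act on Shh or downstream of it. There was 1 match to the ETS motif CNGGAAGT (29315075 to 29315082, minus strand, 79 bp from the position), which is the one in capitals above. There were 3 matches to the E-box CAGATG, of the type bound by HAND2, at −697, −294 and 247 bp. There was no match to the HOX13 motif CCAATAAA or to the GLI motif GACCACCCA. None of the matches overlapped another match or a peak. Windows of 2000 bp centred on all double mutant peaks held the ETS motif in 32.8% of cases, the E-box in 75.7%, the HOX13 motif in 8.32% and the GLI motif in 1.55%, so that the matches of the ZRS window were common ones. The window had a GC content of 39.5% with 18 CpG. The second double mutant peak had a GC content of 31%, against a median of 51% over its list.

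Acetylation was not called at Shh itself. Shh (ENSMUSG00000002633.4, 28456815 to 28467256, minus strand) encodes the ligand that starts the HH pathway, and there were 0 peaks of any list within 10 kb of it, nor within 25, 50 or 100 kb. Of 21938 protein-coding genes, 34.3% had no peak within 10 kb in any list, and 43% (WT), 39.7% (Shh-/-) and 41.1% (double mutant) had none in the single lists, so that Shh shared this with many genes. The nearest WT and double mutant peaks were 139 kb away and the nearest Shh-/- peak 138 kb, each at or just past the start of Rbm33 and outside the interval. With no peak at the gene in WT limb buds, the lists could not show its deletion.

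The stretch without a peak around Shh measured 480 kb (WT), 321 kb (Shh-/-) and 877 kb (double mutant). Gaps of at least this length made up 4.58%, 5.35% and 1.20% of the gaps between neighbouring peaks of those lists, whose medians were 18.8, 11.2 and 9.92 kb. Such gaps held 49.2%, 53.9% and 25.8% of the genome. The double mutant gap was the longest of the 3, although that list had the most peaks.

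**Figure D2:**
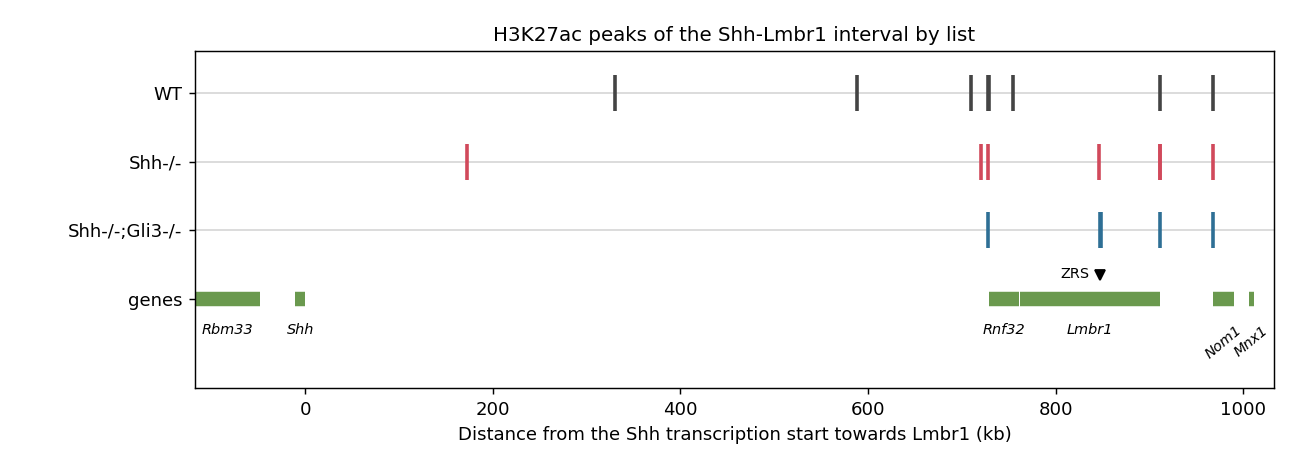
Position of the 20 peaks of the interval by list (ticks, not to scale in width) and of its 6 protein-coding genes (green bars), in kb from the transcription start of Shh. All lists are empty around Shh, the desert holds scattered WT and Shh-/- peaks and no double mutant peak, and the lists share peaks at Rnf32 and Nom1.

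Few peaks lay in the desert between Shh and the promoter of Rnf32, with 3 from WT, 2 from Shh-/- and 0 from double mutant limb buds. None of them overlapped a peak of another list. Among all WT peaks of the same deciles of fold, 45.8% to 64.0% overlapped a Shh-/- peak and 54.0% to 74.1% a double mutant peak. Among all Shh-/- peaks of the deciles of the Shh-/- desert peaks, 18.5% and 32.0% overlapped a WT peak and 33.3% and 51.1% a double mutant peak. The deciles include promoter peaks, so that they give no background for peaks away from promoters alone. The WT peak closest to Shh on the desert side (28797950 to 28798149) lay in an intron of the long antisense transcript 9530036O11Rik. It began 331 kb from the Shh start and had a log2 fold of 2.64 and an FDR of 0.0254. Its sequence is given as the nearest acetylated element to Shh that the WT list held on the desert side, with no capitals because none of the 4 motifs matched it.
WT desert peak, chr5:28797950-28798149: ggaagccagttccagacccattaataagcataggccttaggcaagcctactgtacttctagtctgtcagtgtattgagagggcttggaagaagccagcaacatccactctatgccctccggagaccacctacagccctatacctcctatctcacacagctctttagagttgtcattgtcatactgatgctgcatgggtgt
In the Shh-/- list the closest peak on the desert side (28639550 to 28639699) lay in an intron of the same transcript, 172 kb from the Shh start. It had a log2 fold of 2.83 and an FDR of 0.0095. These peaks of WT and Shh-/- limb buds were 158250 bp apart.

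The other desert peaks were nearer to Rnf32. A WT peak of 100 bp (29055300 to 29055399) had a log2 fold of 2.43 and an FDR of 0.0998. A WT peak of 150 bp (29176800 to 29176949) had a log2 fold of 2.81, an FDR of 0.0077 and the highest GC content of the interval, 70%. A Shh-/- peak of 100 bp (29188050 to 29188149) had a log2 fold of 2.44 and an FDR of 0.106. All desert peaks were at most 200 bp wide, against list medians of 250 bp in WT and Shh-/- limb buds. One further peak lay over no promoter, a WT peak of 100 bp in an intron of Rnf32 (29221900 to 29221999) with a log2 fold of 2.24 and an FDR of 0.216.

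The promoters of Rnf32 and Nom1 were the 2 sites of the interval at which all lists overlapped. Of 21938 protein-coding genes, 41.5% had a peak over a promoter in all 3 lists, and 49% in none. Promoter sequences from RefSeq (GRCm38), from 250 bases before to 50 after the gene's start and on the strand of the gene, are shown for the 3 genes with a promoter peak, with ETS matches in capitals.
Rnf32 promoter, chr5:29195743-29196042, plus strand: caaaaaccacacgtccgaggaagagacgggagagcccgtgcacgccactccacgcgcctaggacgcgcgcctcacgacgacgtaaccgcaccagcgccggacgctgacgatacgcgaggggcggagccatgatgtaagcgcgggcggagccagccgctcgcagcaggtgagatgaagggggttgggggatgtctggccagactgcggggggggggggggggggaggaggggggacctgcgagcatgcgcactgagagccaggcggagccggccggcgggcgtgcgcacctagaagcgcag
Lmbr1 promoter, chr5:29378341-29378640, minus strand: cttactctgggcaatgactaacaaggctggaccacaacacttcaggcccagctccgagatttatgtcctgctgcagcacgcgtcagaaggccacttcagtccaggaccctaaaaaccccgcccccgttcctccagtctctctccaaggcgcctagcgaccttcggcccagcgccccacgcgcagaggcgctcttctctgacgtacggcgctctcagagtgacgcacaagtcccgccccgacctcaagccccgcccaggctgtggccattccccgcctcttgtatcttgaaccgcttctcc
Nom1 promoter, chr5:29434417-29434716, plus strand: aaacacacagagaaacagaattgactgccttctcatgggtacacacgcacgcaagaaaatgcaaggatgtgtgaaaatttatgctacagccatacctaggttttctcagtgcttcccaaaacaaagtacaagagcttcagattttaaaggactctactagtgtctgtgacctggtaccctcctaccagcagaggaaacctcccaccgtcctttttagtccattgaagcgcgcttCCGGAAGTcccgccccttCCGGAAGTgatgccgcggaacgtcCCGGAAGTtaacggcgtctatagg
The Rnf32 promoter had a GC content of 71% with 36 CpG, the Lmbr1 promoter 62% with 21 and the Nom1 promoter 49% with 14. The Nom1 promoter held 3 matches to the ETS motif, which was found in 9.53% of the RefSeq promoters, and the other promoters held no match to any of the 4 motifs.

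Rnf32 encodes a RING finger protein. Its promoter carried the strongest peaks of the interval in both mutant lists. In the WT list there were 2 peaks, from −542 to −243 bp of the start (29195450 to 29195749, log2 fold 2.78, FDR 0.0102) and from 108 to 257 bp (29196100 to 29196249, log2 fold 2.53, FDR 0.0554). The Shh-/- list had 1 peak of 650 bp, from −792 to −143 bp, with a log2 fold of 3.58 and an FDR listed at 0. The double mutant list had 1 peak of 550 bp, from −642 to −93 bp, with a log2 fold of 3.44 and an FDR of 0.000825. The upstream peaks of all lists overlapped, and only the WT list had a peak past the start. Within its own list, the fold was higher than in 54.0% of WT peaks at the upstream WT peak, in 76.6% of Shh-/- peaks and in 76.2% of double mutant peaks. The folds themselves are each relative to the input of that genotype and were not compared.

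Lmbr1 encodes a membrane protein and hosts the ZRS. Each list had a peak at its promoter, but these peaks were narrow, low and only partly overlapping. The WT peak (29378750 to 29378949) lay from −559 to −360 bp of the start, over an exon of the divergent lincRNA 4632411P08Rik, with a log2 fold of 2.16, higher than in 5.57% of WT peaks, and an FDR of 0.297. The Shh-/- list had peaks from −209 to −110 bp and from 141 to 290 bp, both with a log2 fold of 2.46 and an FDR of 0.105. The double mutant peak lay from 41 to 190 bp with a log2 fold of 2.11, higher than in 8.24% of the list, and an FDR of 0.0753. The Shh-/- and double mutant peaks past the start overlapped each other, the WT peak overlapped none, and no peak at Lmbr1 passed an FDR of 0.05. Among all promoter peaks of their lists, the Lmbr1 peaks had a higher fold than 3.54% in WT, 10.3% in Shh-/- and 4.53% in double mutant limb buds.

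Nom1 encodes a nucleolar protein, and its promoter had the widest peak of the interval in the WT and double mutant lists. The peaks measured 850 bp in WT (29434600 to 29435449), 600 bp in Shh-/- (29434750 to 29435349) and 1000 bp in double mutant limb buds (29434550 to 29435549). Their log2 folds were 2.82, 2.87 and 3.29, and their FDRs 0.00601, 0.00645 and 0.000889. The WT and double mutant peaks began before the start and contained the 3 ETS matches, while the Shh-/- peak began 86 bp after the start and contained none. Mnx1, a motor neuron transcription factor gene at the far end of the interval, had no peak within 10 kb in any list, and the nearest peaks were 37.6, 37.7 and 37.5 kb away at Nom1.

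**Figure D3:**
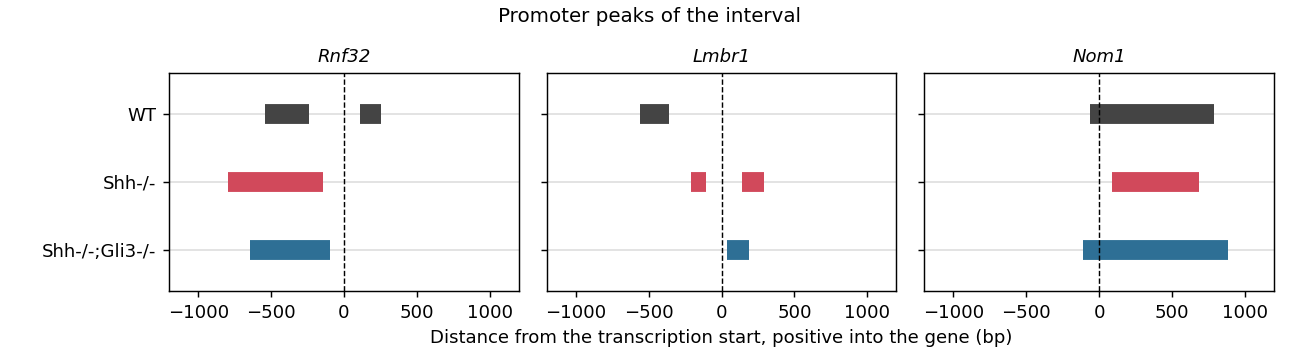
Peaks at the 3 acetylated promoters of the interval by list (bars, to scale), in bp from the transcription start (dashed line) and positive into the gene. At Rnf32 the upstream peaks overlap in all lists, at Lmbr1 the WT peak lies apart from the others, and at Nom1 the Shh-/- peak is the narrowest and begins past the start.

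Over the whole interval, the members were few and narrow. There were 6.96 WT, 6.09 Shh-/- and 4.35 double mutant peaks per Mb, against 9.21, 11.8 and 12.7 per Mb of the genome and 10.6, 12.4 and 13.6 per Mb of chromosome 5. Peaks covered 2.05, 1.95 and 2.1 kb, which is 0.178%, 0.170% and 0.183% of the interval, against 0.380%, 0.475% and 0.629% of the genome. The order of the counts depended on the threshold. As deposited, the double mutant had the fewest peaks, at an FDR below 0.05 there were 4 WT, 3 Shh-/- and 3 double mutant peaks, and at a log2 fold of at least 3 there were 0, 1 and 2. The covered length was nearly the same in all 3 lists. The median widths were 175, 150 and 200 bp, against 250, 250 and 300 bp in the lists.

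The median log2 folds were 2.59 (WT), 2.48 (Shh-/-) and 2.74 (double mutant), against 2.70, 2.89 and 2.66 over all their peaks. Only the Rnf32 peaks of the mutants were above the 75th percentile of fold in their lists. An FDR below 0.05 was reached by 4 of 8 WT, 3 of 7 Shh-/- and 3 of 5 double mutant peaks, where 60.8%, 72.4% and 83.4% of the lists passed. By the −log10 of the Poisson p-value, promoter peaks ranged from 9.54 at Lmbr1 to 82.9 at Rnf32, both in the double mutant list. The other peaks ranged from 5.10 to 7.64, apart from the first double mutant peak at the ZRS with 17.4. These ranges pool p-values taken against different inputs. Within the double mutant list, that ZRS peak exceeded the Lmbr1 promoter peak (FDR 0.0753) and lay below those at Rnf32 and Nom1. Its own FDR was 0.0558, and its fold was higher than in 14.6% of the list.

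**Figure D4:**
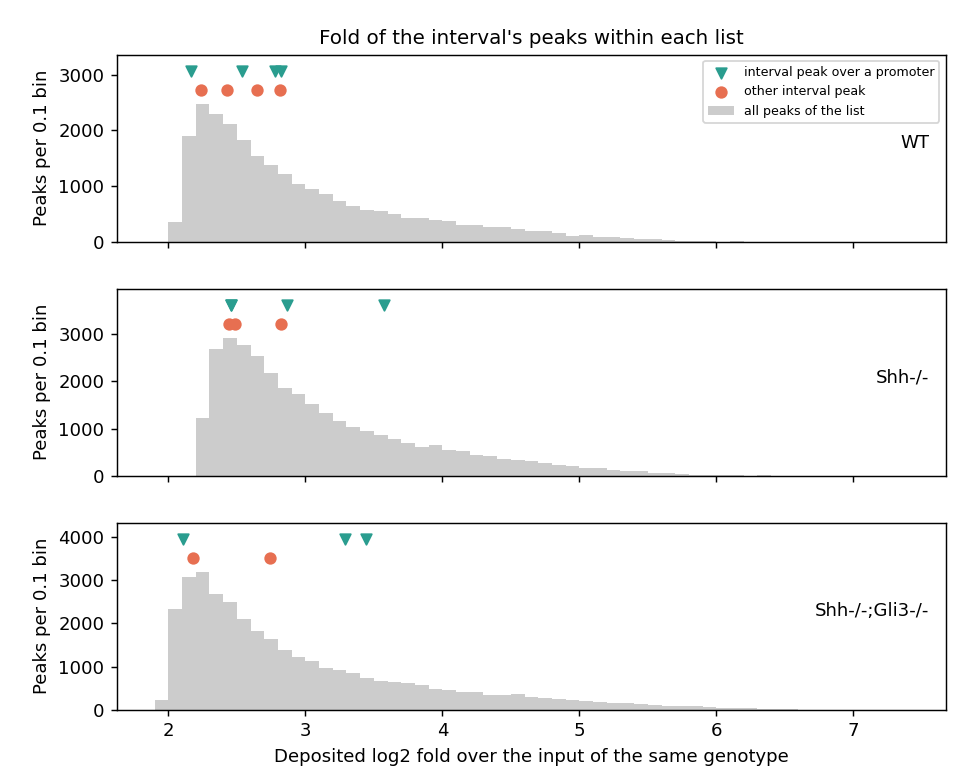
Deposited log2 fold of the peaks of the interval (triangles over a promoter, circles elsewhere) above the distribution of all peaks of each list in bins of 0.1 (grey bars, number of peaks). The interval peaks lie in the lower and middle part of each list, and the highest are the Rnf32 peaks of the mutant lists at 3.58 and 3.44.

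To ask how far the lists shared the interval, peaks were intersected with those of the other lists (at least 1 bp). Of the 8 WT peaks, 2 overlapped a Shh-/- peak (25%, Wilson 95% interval 7.15 to 59.1%), where 63.4% of all WT peaks did, and the same 2 overlapped a double mutant peak, where 70.8% did. Of the 7 Shh-/- peaks, 2 overlapped a WT peak (28.6%, 8.22 to 64.1%, against 48.4%) and 3 a double mutant peak (42.9%, 15.8 to 75%, against 61.2%). Of the 5 double mutant peaks, 2 overlapped a WT peak (40%, 11.8 to 76.9%, against 43.3%) and 3 a Shh-/- peak (60%, 23.1 to 88.2%, against 49.4%). The intervals cover counting error over few peaks and no variation between embryos. Both WT shares were 50% at an FDR below 0.05 (2 of 4 peaks) and with gaps of up to 500 bp allowed. Whole-list shares under these settings are not given, so that the 50% has no background. The WT peaks of the interval also lay in deciles of fold of which 33.5% to 64.0% overlapped a Shh-/- peak and 44.8% to 74.1% a double mutant peak.

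A peak without any partner was found for 6 of 8 WT peaks (75%, 40.9 to 92.9%, against 24.1%), 4 of 7 Shh-/- peaks (57.1%, 25 to 84.2%, against 35.3%) and 2 of 5 double mutant peaks (40%, 11.8 to 76.9%, against 44.4%). When overlapping peaks were joined, the 20 peaks formed 15 regions. Of these, 2 were in all 3 lists (24.2% of the 51428 regions of the genome), 1 was in both mutant lists at the Lmbr1 promoter, and 12 were in a single list (63.6% genome-wide). All 9 regions away from a promoter, those at the ZRS and in the desert included, were in a single list by the 1 bp rule. No share over all regions away from a promoter in the genome was taken, so this count has no background. The Shh-/- and first double mutant peaks at the ZRS were 300 bp apart. With gaps of up to 500 bp allowed, 71.4% of the Shh-/- peaks of the interval had a double mutant partner, against 42.9% without. The share of all Shh-/- peaks under that rule is not given, so this rise has no background. Peaks of low fold were more often without a partner in these lists, and how far this set the shares of the interval was not tested.

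Genes that act with Shh were examined in the same lists, to set the absence of a peak at Shh beside its pathway. These gene lists were chosen with results of the data known, and their counts are descriptions. Of 14 HH ligands, receptors and co-factors, 9 had a promoter peak in all 3 lists (41.5% of all protein-coding genes), among them the receptors Ptch1 and Smo, the co-receptors Cdon, Boc and Gas1, and Disp1 and Hhat, which release and modify the ligand. No list had a promoter peak at the 3 ligand genes Shh, Ihh and Dhh, at Hhip, which binds and limits the ligand, or at Scube2. Shh and Ihh had no peak within 10 kb in any list. At Ptch1, which is itself induced by the pathway, promoter peaks covered 4.2 kb (WT), 1.25 kb (Shh-/-) and 5.1 kb (double mutant). Such lengths depend on the list as a whole, since peaks covered 0.380%, 0.475% and 0.629% of the genome in that order. They do not measure the level of acetylation. For HH-responsive GLI-bound regions associated with Ptch1, the study reported much lower H3K27ac in double mutants. At Hhip, 4 double mutant peaks and no other lay within 10 kb. These covered 0.65 kb, and none lay over the promoter. The share of all genes with peaks within 10 kb in that list only is not given.

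Of 21 factors known to act on Shh transcription in the limb, 16 had a promoter peak in all 3 lists. The gene for HAND2, an activator of the ZRS, was among them with 1.1, 1.3 and 4.1 kb in WT, Shh-/- and double mutant limb buds. The covered lengths here, too, depend on the list as a whole. Hoxd12 and Hoxd13, which act through the ZRS, had a promoter peak in the WT and double mutant lists only, with 0.1, 0 and 0.95 kb at Hoxd13. The WT promoter peak had a log2 fold of 2.76 at Hoxd12 and only 2.12 at Hoxd13. Within 10 kb, the Shh-/- list had 2 peaks at Hoxd12 and 0 at Hoxd13. Ets1 had one in both mutant lists and Gata6 in the Shh-/- list only. Hoxa13 had no promoter peak but had peaks within 10 kb in every list. A promoter peak was called at 18 of the 21 genes for WT, 18 for Shh-/- and 19 for double mutant limb buds, where 44.1%, 48.1% and 46.2% of protein-coding genes had one.

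Of 12 signals made by part of the limb bud, Shh among them, 3 had a promoter peak in all lists, namely Bmp7, Fgf10 and Wnt5a. No list had a promoter peak at 7 of them, against 49% of all protein-coding genes, and 4 (Shh, Fgf4, Wnt7a and Grem1) had no peak within 10 kb in any list, against 34.3%. The latter count was near that background. Fgf4 is made by the apical ridge, Wnt7a by dorsal ectoderm and Grem1 by posterior mesenchyme. Bmp4 had a promoter peak in both mutant lists and Fgf9 in the Shh-/- list only. The WT list had 5 peaks within 10 kb of Bmp4.

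Markers were used to check the tissue. All 7 genes of limb mesenchyme had a promoter peak in all lists, and none of 3 genes of hindlimb or 4 of neural tube had one in any list. The neural tube genes and the hindlimb genes Pitx1 and Isl1 also had no peak within 10 kb. The hindlimb gene Tbx4 had 6 WT, 6 Shh-/- and 7 double mutant peaks within 10 kb, covering 1.35, 2.7 and 5 kb. Of 5 genes of the apical ectoderm, only Dlx5 had a promoter peak, in the Shh-/- list. Of 3 muscle precursor genes, Lbx1 and Met had one in the double mutant list only, and of 6 blood and vessel genes, Tal1 and Pecam1 had one in 1 mutant list each. Within 10 kb, the Shh-/- list had 2 peaks at Pax3, 3 at Lbx1 and 1 at Met, and the WT list had 0 at each. Fgf8 and Pecam1 had peaks within 10 kb in every list. Of all protein-coding genes, 44.1% (WT), 48.1% (Shh-/-) and 46.2% (double mutant) had a promoter peak. The part of other cells in the presence of peaks of the interval was not tested.

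**Figure D5:**
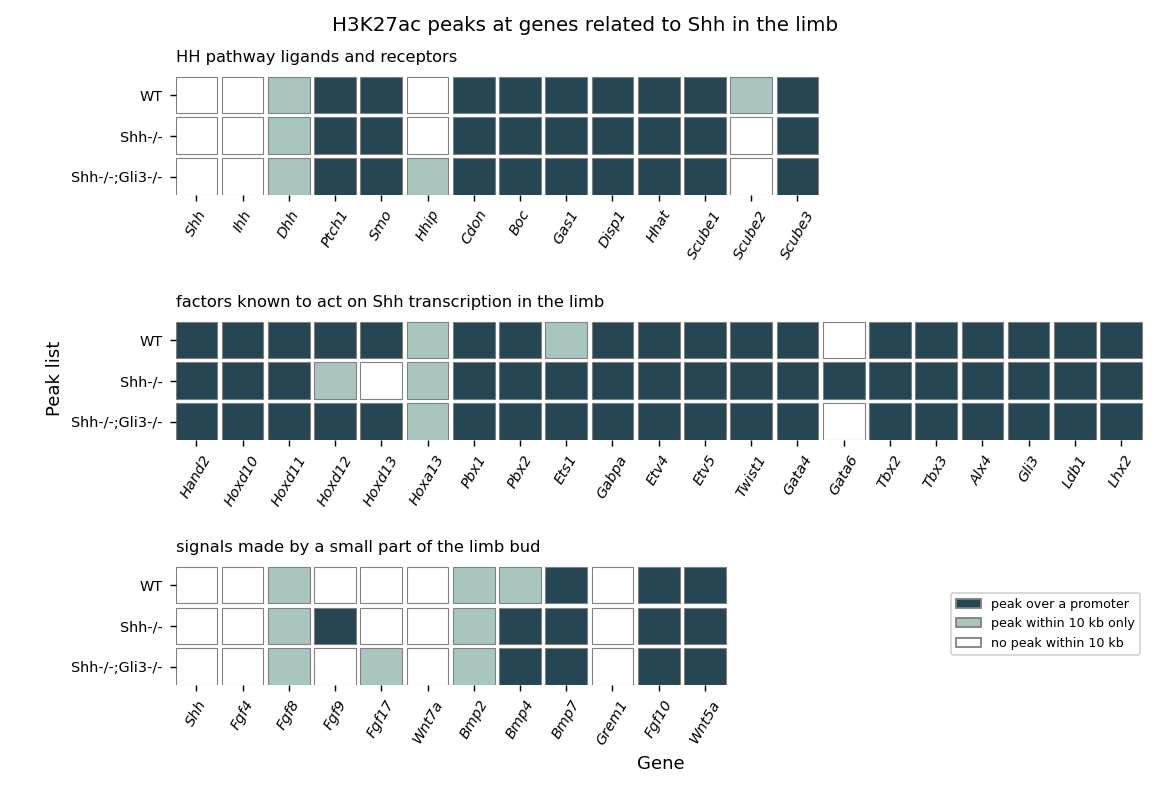
Presence of H3K27ac peaks at genes related to Shh in the limb, with 1 column a gene and 1 row a list. Dark cells mark a peak over a promoter, light cells a peak within 10 kb only and white cells neither, and Shh is white in all 3 rows while 16 of 21 factors acting on its transcription are dark in all rows.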

How the data were processed

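H3K27ac peaks were compared between WT, Shh-/- and Shh-/-;Gli3-/- forelimb buds (9 libraries). Groups came from the sample titles, since the labels enter every sample as wild type under genotype. The authors called peaks with CisGenome 2.1.0 on mm10, and the submitters' processing notes also name Bowtie2 2.2.5. Per the study's methods, 2 biological replicates were used and each library was sequenced beyond a stated minimum. Whether replicates were pooled for a list is not given in the sources used here, and the lists hold no depth. The authors deposited, for each peak, its position and width (steps of 50 bp), its largest score, its largest log2 fold over input, the −log10 of its smallest Poisson p-value and an FDR (q-value). Positions may be off by 1 bp, because their first base is not stated.

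Peaks were intersected in Python 3.11.15 (numpy 2.4.6, pandas 2.3.3, scipy 1.17.1; figures with matplotlib 3.10.9), counting bases between peaks as distance. Genes came from GENCODE M21 (basic set). Promoters reached 2 kb before and 1 kb past the starts of protein-coding transcripts, and RefSeq promoter sequences were matched by symbol (3 genes printed). Wilson 95% intervals cover counting error only. No test was run, because each genotype has 1 list. Overlaps were tested on simulated peaks. The interval, named genes (all members, neighbours and listed genes) and gene lists were chosen with earlier results of these data known, and 1 listed gene is not reported here. Alternatives were an FDR below 0.05, equal numbers of peaks, a log2 fold of at least 3, reciprocal 50% overlap, gaps of up to 500 bp and other windows.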

Additional observations from a re-analysis of the deposited data

How the results depend on the processing

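The count of 0 peaks at Shh held in all 3 lists within 25, 50 and 100 kb. The counts at the ZRS held within 5 and 10 kb and over intron 5. An FDR threshold only removes peaks. The counts of 0 at Shh, and of 0 WT peaks at the ZRS, could not change under it. At an FDR below 0.05 the ZRS window kept 0 Shh-/- and 1 double mutant peak, and the interval kept 4 WT, 3 Shh-/- and 3 double mutant peaks. At a log2 fold of at least 3 there remained 0 WT peaks (0 kb), 1 Shh-/- peak (0.65 kb) and 2 double mutant peaks. With equal numbers of peaks the mutant lists kept 3 each. Widened by 100 kb on each side, the interval held 11 Shh-/- peaks, and 4.1, 4.75 and 5.25 kb were covered by WT, Shh-/- and double mutant peaks. The share of Shh-/- peaks overlapped by WT peaks was 66.7% at an FDR below 0.05 or with equal numbers. At a log2 fold of at least 3 no WT peak remained in the interval. WT shares could not be computed there, and the shares of mutant peaks overlapped by WT peaks were bound to be 0%. The share of Shh-/- peaks overlapped by double mutant peaks was 100% at that fold, from 1 Shh-/- peak. No whole-list shares under these settings are given here. Of the values under an alternative, 21 moved and 55 stayed within 1.5 times the count or within the interval given in the report, reciprocal 50% overlap and gaps of up to 500 bp among the latter. The 55 include counts of 0 that the FDR threshold could not change, and the 21 include the shares bound to be 0%. No paired analysis was possible because the lists hold no value per replicate. The lists hold no depth, so an absent peak bounds nothing about the acetylation there.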

Other observations

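The nearest acetylated promoters outside the interval carried peaks of higher fold than its own in each list. The promoter of Rbm33, which encodes an RNA-binding protein, lies just beyond the Shh side and had peaks of 1600 bp (WT), 1650 bp (Shh-/-) and 1850 bp (double mutant), with log2 folds of 5.32, 5.85 and 6.11. These were above 98.2%, 99.5% and 99.1% of the promoter peaks of their lists by fold. On the other side, promoter peaks at Ube3c, a ubiquitin ligase gene, covered 0.45, 1.0 and 1.3 kb, with largest log2 folds of 3.01, 4.17 and 4.04. At Dnajb6, which encodes a chaperone, they covered 1.3, 1.25 and 1.3 kb, with log2 folds of 4.85, 4.54 and 5.0. The window of Dnajb6 overlaps that of the small gene Gm5129, so that this peak cannot be given to either. En2, a homeobox gene of the midbrain and hindbrain, and its neighbour Cnpy1 had no peak within 10 kb in any list.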
